A study of Mus musculus with 7 samples.

Results

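The granulocyte transcription factors were 10 genes chosen by name, namely the C/EBP factors Cebpa, Cebpb, Cebpd and Cebpe, the ETS factor Spi1 (PU.1), the repressor Gfi1, the interferon regulatory factor Irf8, and the Kruppel-like factors Klf2, Klf4 and Klf6. All 10 had a row in the table of RPKM values (read numbers scaled by transcript length and by the depth of the library), which holds 16047 genes. Of the 10, 9 averaged 1 RPKM or more across the 7 libraries and entered the test between groups, as did 9594 genes in all. Gfi1 was below that level. The neutrophils were sorted for RNA-seq from C57BL/6 mice, adult males per the study's methods, 24 h after acute liver injury by acetaminophen (AILI), so that both groups had received acetaminophen. Of the mice, 4 were injected with PBS (replicates 5 to 8) and 3 with 400 µL of medium conditioned with MC-21 at 29 µg/mL (replicates 2 to 4), from 12 h before acetaminophen and then every 24 h. MC-21 is an antibody against mouse CCR2 and ablates circulating Ly6Chi monocytes, and the control injection was PBS, with no other antibody or conditioned medium. From each liver, 50000 cells were sorted as CD11b+Ly6CloCX3CR1-GFP-Ly6G+ per the labels. That gate reads a GFP reporter of Cx3cr1, while the strain label names C57BL/6 with no reporter allele, so that the genotype of these mice at Cx3cr1 is not settled by the sources used here. The groups were compared to learn how a lack of infiltrating monocytes bears on the activity and survival of neutrophils.

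Neutrophils arise in the bone marrow through a sequence of transcription factors. PU.1 and C/EBPα open the myeloid programme, Gfi1 and C/EBPε carry cells through the granulocyte stages in which granule proteins are made, and Irf8 and Klf4 favour the monocyte side of the same decision. C/EBPβ and C/EBPδ are used in mature cells and in emergency granulopoiesis, when inflammation speeds up neutrophil output, and Klf2 and Klf6 restrain or promote inflammatory gene expression in mature myeloid cells.

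The libraries held the transcripts of neutrophils together with those of other liver cells. All 10 neutrophil markers measured passed a mean of 1 RPKM, with S100a9, an alarmin subunit, between 12275 and 25041 RPKM over the 7 libraries. Their summed level was 18166 to 30725 RPKM in PBS neutrophils and 27916 to 41593 RPKM in MC-21 neutrophils. All 10 liver endothelial markers and all 7 hepatocyte markers also passed 1 RPKM, with summed levels of 1418 to 2980 and 231 to 508 RPKM in PBS neutrophils and of 1533 to 2489 and 233 to 367 RPKM in MC-21 neutrophils, so that the ranges of the groups overlapped. Other lists differed between the groups. For monocyte and macrophage markers, the sum of 15 genes was 505 to 583 RPKM in PBS neutrophils and 233 to 303 RPKM in MC-21 neutrophils, without overlap, and of 13 tested genes 9 had an unadjusted p under 0.05, all lower in MC-21 neutrophils, against 11.2% of all genes tested. An adjusted p under 0.05 was reached by 5 of them, against 0.427% of all genes (limma). Of these 5, C1qb and Fcgr1 stayed under 0.05 without any 1 library, and C1qa, C1qc and Ccr2 did so in 5, 2 and 2 of 7 such fits. Of the 4 B cell markers measured, the sum was 10.7 to 29.9 RPKM in PBS and 6.14 to 9.73 RPKM in MC-21 neutrophils, also without overlap, with 3 of 3 tested genes lower and 2 of them at an unadjusted p under 0.05. Of T and NK cell markers, 5 of 5 tested genes were lower, 2 of them at an unadjusted p under 0.05. For both lists the shares over all genes tested were 69.4% lower at any size and 11.2% lower at an unadjusted p under 0.05. Of the 10 neutrophil markers, 5 were higher at an unadjusted p under 0.05, against 3.59% of all genes. Of these 5, 1 had an adjusted p under 0.05, against 0.198% of all genes. Since these are bulk libraries, fewer cells of a type and less RNA per cell cannot be told apart.

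**Figure D1:**
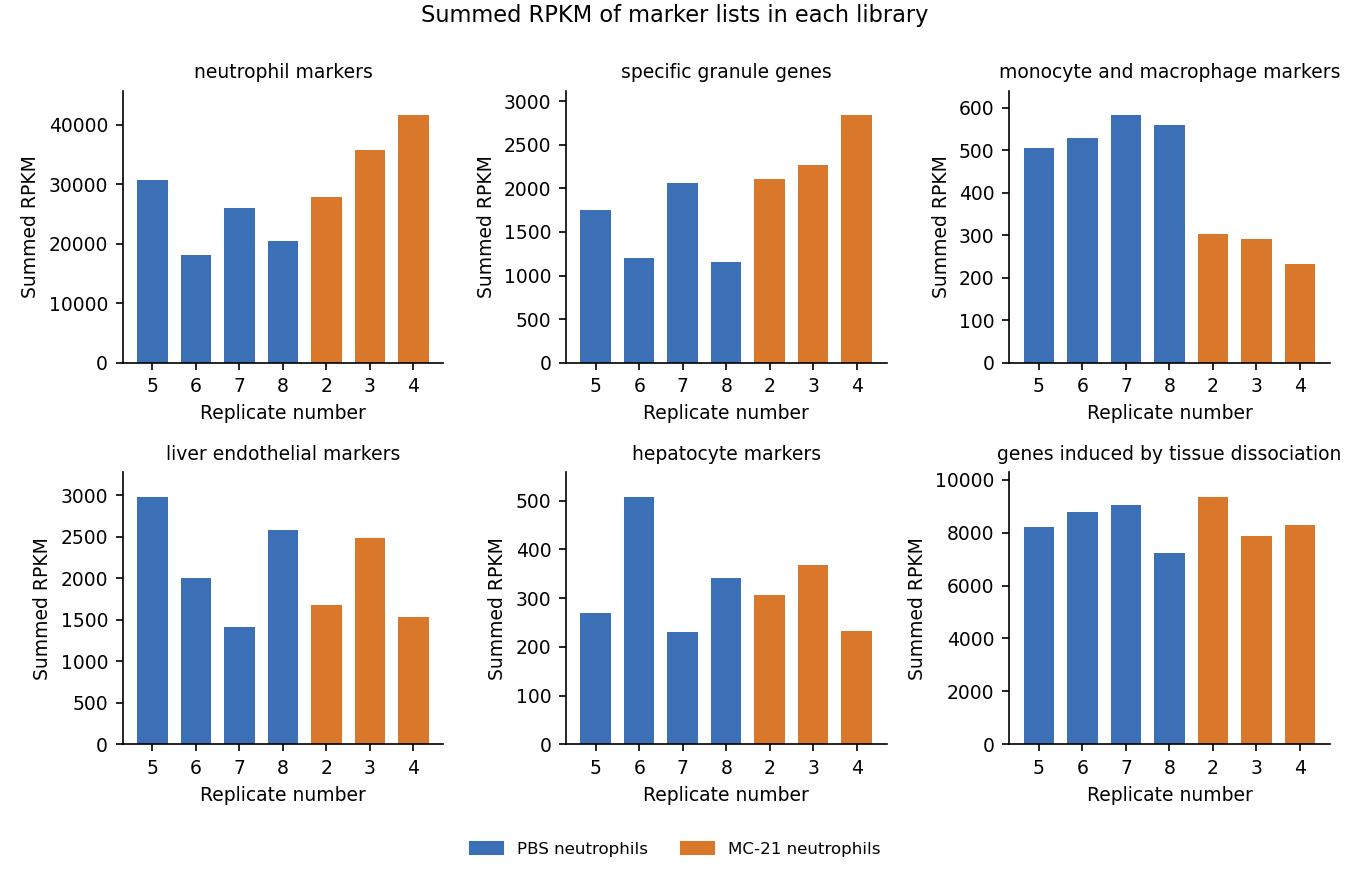
Summed RPKM (y axis, linear) of 6 gene lists in each library (x axis, replicate number; blue, PBS; orange, MC-21). The monocyte and macrophage sum is at most 303 RPKM in the MC-21 libraries and at least 505 RPKM in the PBS libraries. The specific granule sum is at most 2058 RPKM in the PBS libraries and at least 2113 RPKM in the MC-21 libraries. The neutrophil, endothelial, hepatocyte and dissociation sums overlap between the groups.

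RefSeq promoter sequences were at hand for 7 of the factors, in 9 windows of 250 bases upstream of a transcription start. The windows of Cebpb and Klf2, the factors with the most RPKM, and of Klf4 and Cebpa, 2 low factors with differences of at least 0.5 on the log2 scale between the groups as deposited, are shown 5′ to 3′, each ending at the base before the start. Capitals mark CCNCNCCC on either strand (the CACCC-type letters that Kruppel-like and related zinc finger factors bind, where overlapping matches run together), TGACG on either strand (the core of a cAMP response element) and TATAA on the sense strand between 40 and 15 bases upstream of the start (a TATA box). Coordinates are those of GRCm38.p6, a later build than that of the RPKM table.
Cebpb (chr2:167688665-167688914, plus strand): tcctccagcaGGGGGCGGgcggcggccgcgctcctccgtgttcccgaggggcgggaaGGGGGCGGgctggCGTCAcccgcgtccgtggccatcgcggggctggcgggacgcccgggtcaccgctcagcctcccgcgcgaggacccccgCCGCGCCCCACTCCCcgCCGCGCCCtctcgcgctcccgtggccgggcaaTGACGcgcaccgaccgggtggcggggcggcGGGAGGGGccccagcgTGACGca
Klf2 (chr8:72318812-72319061, plus strand): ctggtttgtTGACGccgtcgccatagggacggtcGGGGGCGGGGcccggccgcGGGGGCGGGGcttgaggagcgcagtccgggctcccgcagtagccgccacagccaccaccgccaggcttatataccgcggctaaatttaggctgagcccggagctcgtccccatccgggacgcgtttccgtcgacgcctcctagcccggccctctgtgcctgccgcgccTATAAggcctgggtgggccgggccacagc
Cebpa (chr7:35119043-35119292, plus strand): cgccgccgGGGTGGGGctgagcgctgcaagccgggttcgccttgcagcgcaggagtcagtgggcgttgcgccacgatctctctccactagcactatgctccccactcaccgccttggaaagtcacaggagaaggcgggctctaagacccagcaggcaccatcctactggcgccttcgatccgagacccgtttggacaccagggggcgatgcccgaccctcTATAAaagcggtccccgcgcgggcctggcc
Klf4 (chr4:55532476-55532725, minus strand): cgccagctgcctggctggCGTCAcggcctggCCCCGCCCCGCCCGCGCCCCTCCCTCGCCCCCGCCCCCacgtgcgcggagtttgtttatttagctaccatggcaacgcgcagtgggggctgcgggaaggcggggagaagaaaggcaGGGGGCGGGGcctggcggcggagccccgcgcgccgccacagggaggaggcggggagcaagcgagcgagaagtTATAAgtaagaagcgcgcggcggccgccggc
Cebpb had 6 overlapping or separate matches to CCNCNCCC, Klf4 had 9, Klf2 had 4 and Cebpa had 1. TGACG was found 3 times before Cebpb and once each before Klf2 and Klf4. The TATAA letters preceded Klf2, Cebpa and Klf4, and not Cebpb.

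Over the 9 windows, CCNCNCCC was found in 8, against 45.9% of 32851 promoter windows of the same length. The windows of the factors were also rich in G and C, with 54 to 81.6% against a median of 52.4% over all windows, and these letters consist mostly of C. TATAA was found at its position in 4 of 9 windows (Klf4, Cebpa, Klf2 and Irf8) against 3.52% of all windows, and TGACG in 3 of 9 against 17.8%. A C/EBP motif, TTGCNNAA on either strand, was found in 1 of the 9 windows (Gfi1) against 9.56%, and GAGGAA, the core that PU.1 binds, in 0 of 9 against 23.3%. A match describes letters in these windows and is not a measured site, and several windows belong to the same gene.

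The factors differed widely in level. In PBS neutrophils the order of mean RPKM was Cebpb, Klf2, Cebpd, Spi1, Klf6, Irf8, Cebpe, Klf4, Cebpa and Gfi1. Cebpb ranked 38 of all 16047 genes by its level, Klf2 ranked 259, Cebpd ranked 331, Spi1 ranked 518, Klf6 ranked 900 and Irf8 ranked 1515. The other 4 factors were far lower, with ranks of 4793 for Cebpe, 4839 for Klf4, 6325 for Cebpa and 12759 for Gfi1. Cebpa and Gfi1, which act in progenitors, were thus at the low end of the order, and the C/EBP factors of mature cells at the high end. The PBS ranges of Klf2 and Cebpd overlapped, as did those of Cebpe and Klf4 and of Klf4 and Cebpa, so that these neighbours did not differ beyond their spread, and each of the other 6 neighbouring pairs was in the same order in all 7 libraries. RPKM divides by transcript length while 3′ libraries read 1 end of a transcript. Without that division Klf6, whose transcript is long, moved from rank 5 to rank 3, and Cebpe from rank 7 to rank 9, below Cebpa at rank 8.

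**Figure D2:**
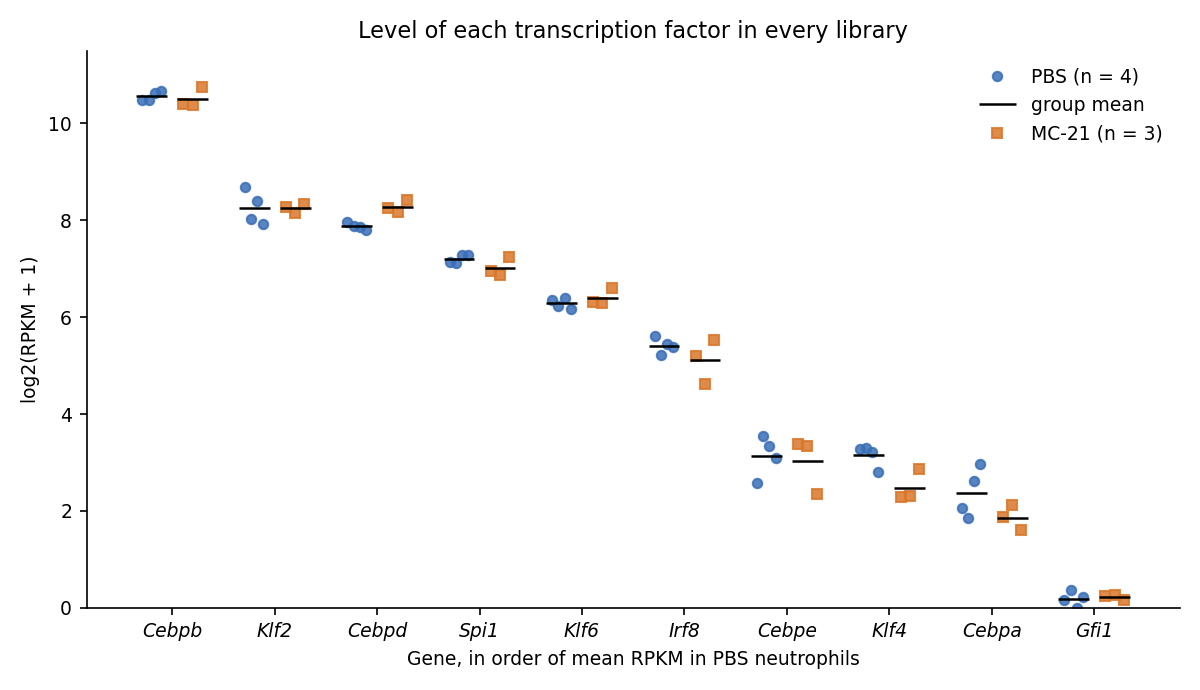
Log2(RPKM + 1) (y axis) of the 10 factors (x axis, in order of their mean RPKM in PBS neutrophils) in each library (blue circles, 4 PBS libraries; orange squares, 3 MC-21 libraries; lines, group means of the plotted values). Cebpb is the highest and Gfi1 the lowest factor in every library, and the groups are apart for Cebpd alone.

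Between the groups, none of the 9 factors tested had an adjusted p under 0.05 (limma with Benjamini-Hochberg adjustment over 9594 genes, adjusted p from 0.190 to 0.997), against 0.625% of all genes tested. An unadjusted p under 0.05 was reached by 2 factors, against 14.7% of all genes tested. Cebpd was higher in MC-21 neutrophils, as 3.59% of all genes were by this measure, and Klf4 was lower, as 11.2% were. None of the 9 passed the cutoffs of the study (a change of 2-fold or more beside an unadjusted p under 0.05), which 2.7% of all genes passed. The groups did not overlap for 1 factor, Cebpd, against 13.3% of all genes tested. Of the 9 differences on the log2 scale, 7 were below 0, as were 69.4% of all genes tested, with a median of -0.11 against -0.15 over all genes, and of these 7 Cebpb, Cebpe and Klf2 were above 0 with libraries centred on their medians, and Spi1, too, after correction for GC content. For 7 of the 9 factors the 95% interval of the difference lay within a 2-fold change in either direction, and for Klf4 and Cebpa it reached a fall of more than 2-fold. An adjusted p above 0.05 does not show that the levels were equal.

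**Figure D3:**
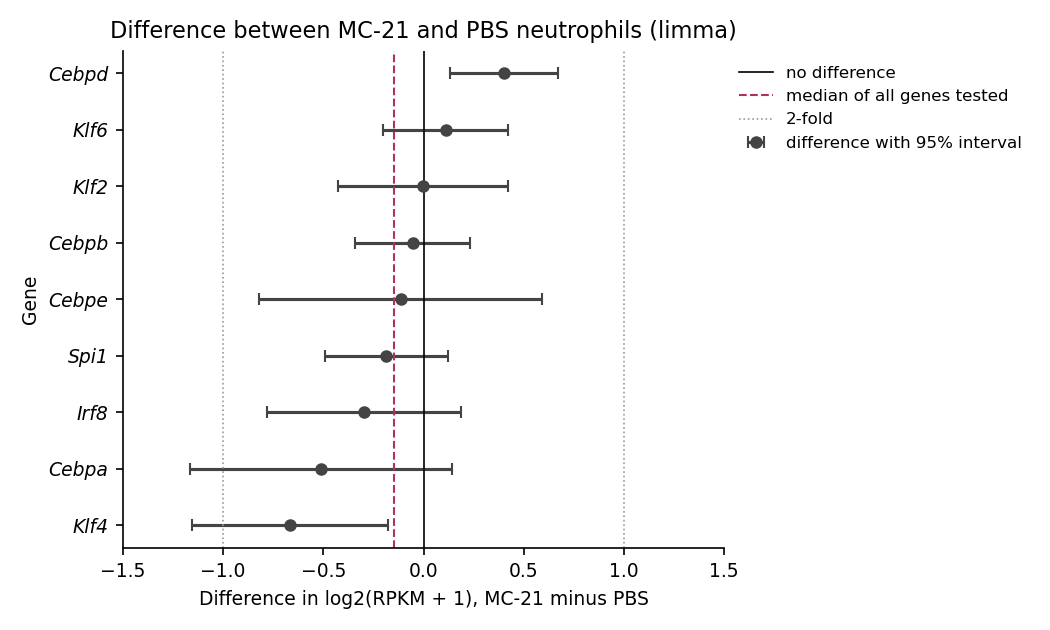
Difference in log2(RPKM + 1) between MC-21 and PBS neutrophils (x axis) for the 9 factors tested (y axis), with 95% intervals from limma (4 PBS and 3 MC-21 libraries). Dotted lines mark a 2-fold change and the dashed line the median of all genes tested, -0.15. The intervals of Cebpd and Klf4 leave out 0, on opposite sides, and the points of Cebpb, Cebpe, Klf2 and Spi1 cross 0 under another scaling of the libraries.

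Cebpb, a gene of 1 exon (mm9 chr2:167514415-167515918) whose product drives inflammatory and emergency granulopoiesis genes, was the most abundant of the factors. Its level was 1441, 1436, 1581 and 1621 RPKM in PBS replicates 5 to 8 and 1361, 1334 and 1718 RPKM in MC-21 replicates 2 to 4. MC-21 replicate 4 was the highest and MC-21 replicate 3 the lowest of all libraries, so that the MC-21 group spanned the whole PBS group. The means were 1520 ± 95.1 (SD, n = 4) and 1471 ± 215 RPKM (SD, n = 3). The log2 fold change was -0.05 (standard error, SE, 0.13, 95% interval -0.34 to 0.23, adjusted p = 0.870 from limma), a value that turned to 0.11 with libraries centred on their medians.

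Cebpd, whose product is induced in acute inflammation, was the factor whose groups were apart. Its level (mm9 chr16:15887379-15888559) was 250, 235, 232 and 220 RPKM in PBS replicates 5 to 8 and 303, 288 and 340 RPKM in MC-21 replicates 2 to 4. The lowest MC-21 library was above the highest PBS library, and the spread within PBS neutrophils was narrow, with a coefficient of variation of 5.25%. The means were 234 ± 12.3 RPKM (SD, n = 4) and 310 ± 26.5 RPKM (SD, n = 3), a 1.32-fold higher level in MC-21 neutrophils with a 95% interval of 1.09- to 1.59-fold. The log2 fold change was 0.40 (SE 0.12) with an unadjusted p of 0.00819 and an adjusted p of 0.190 from limma, and the two-sided exact permutation test gave p = 0.0286, the smallest that 4 libraries against 3 allow. Over 15 alternatives its log2 fold change stayed between 0.33 and 0.66 and its adjusted p from limma between 0.0830 and 0.412. As a description chosen after its values were seen, Cebpb was 5.76 to 7.36 times Cebpd in the PBS libraries and 4.49 to 5.06 times Cebpd in the MC-21 libraries, a ratio that 1 scaling factor per library cannot move.

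**Figure D4:**
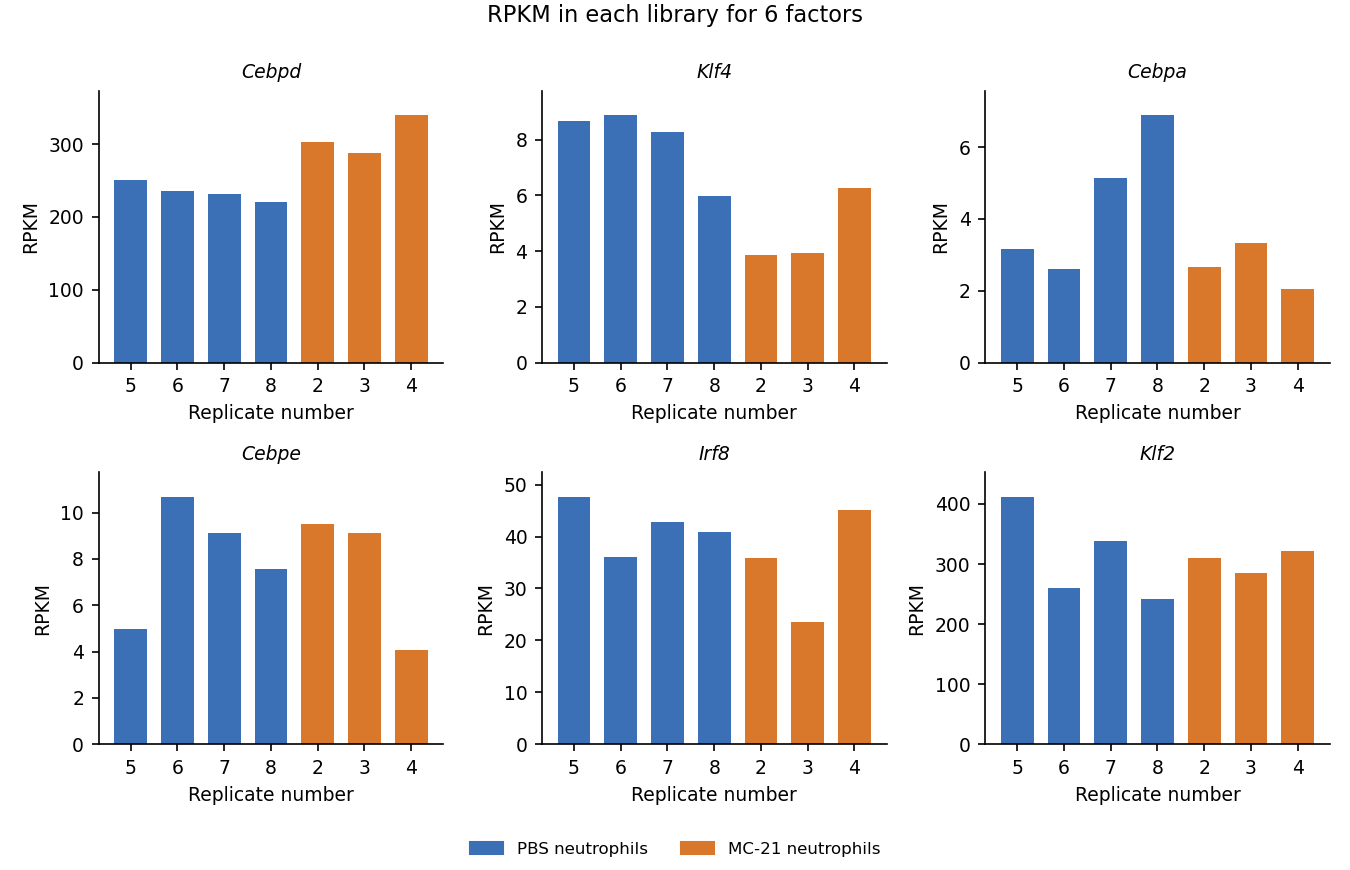
RPKM (y axes, linear, each panel with its own scale) of 6 factors in each library (x axes, replicate number; blue, PBS; orange, MC-21). Cebpd is higher in every MC-21 library than in every PBS library. Klf4 overlaps through MC-21 replicate 4 and PBS replicate 8, and Irf8 through MC-21 replicate 4 alone. The groups of Cebpa, Cebpe and Klf2 overlap more widely.

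Cebpe, which is needed for the making of specific granules, was low and uneven. It had 4.97, 10.7, 9.11 and 7.54 RPKM in PBS replicates 5 to 8 and 9.50, 9.14 and 4.07 RPKM in MC-21 replicates 2 to 4 (mm9 chr14:55329200-55331011). The lowest library of each group, PBS replicate 5 and MC-21 replicate 4, had 4.97 and 4.07 RPKM, and the remaining 5 libraries lay between 7.54 and 10.7 RPKM. Means were 8.07 ± 2.43 (SD, n = 4) and 7.57 ± 3.04 RPKM (SD, n = 3), and the log2 fold change of -0.11 (95% interval -0.82 to 0.59, adjusted p = 0.892 from limma) turned positive with libraries centred on their medians. These values rested on 128 reads in the 4 PBS libraries and 74 reads in the 3 MC-21 libraries, whose 95% Poisson intervals of 107 to 152 and 58.1 to 92.9 reads cover counting error only.

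Cebpa starts the granulocyte programme and is reduced as neutrophils mature. Among the C/EBP factors it had the lowest mean RPKM, but not once the division by transcript length was left out. It had 3.15, 2.62, 5.13 and 6.88 RPKM in PBS replicates 5 to 8 and 2.65, 3.33 and 2.04 RPKM in MC-21 replicates 2 to 4 (mm9 chr7:35904312-35906945, 1 exon). PBS replicates 7 and 8 were above every MC-21 library, whereas PBS replicates 5 and 6 lay within the MC-21 range. The means of 4.44 ± 1.95 RPKM (SD, n = 4) and 2.68 ± 0.645 RPKM (SD, n = 3) gave a log2 fold change of -0.51 (SE 0.29, 95% interval -1.17 to 0.14, adjusted p = 0.454 from limma). Reads of Cebpa numbered 154 in the PBS and 54 in the MC-21 libraries. Of the genes tested, Idh2 (mitochondrial isocitrate dehydrogenase) had the most similar profile over the 7 libraries, with a mean absolute difference of 0.05 on the centred log2 scale, followed by Pik3r2, a regulatory subunit of phosphoinositide 3-kinase (0.10), and Tnnt1, a troponin subunit (0.13).

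Spi1, whose product PU.1 is required in both granulocytes and monocytes, was steady among PBS neutrophils. Its level was 139, 138, 154 and 154 RPKM in PBS replicates 5 to 8 and 123, 115 and 150 RPKM in MC-21 replicates 2 to 4 (mm9 chr2:90922547-90955913, annotated there under its older symbol). MC-21 replicates 2 and 3 were below every PBS library, and MC-21 replicate 4 was among them. The log2 fold change was -0.19 (SE 0.14, 95% interval -0.49 to 0.12, adjusted p = 0.565 from limma), and it was 0.05 after correction for GC content.

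Irf8, which steers progenitors to monocytes and dendritic cells, had 47.6, 36.1, 42.7 and 40.8 RPKM in PBS replicates 5 to 8 and 35.8, 23.6 and 45.0 RPKM in MC-21 replicates 2 to 4 (mm9 chr8:123260258-123280594). MC-21 replicates 2 and 3 were below every PBS library, and MC-21 replicate 4 was within the PBS range. In MC-21 replicate 3, the shallowest library, 129 reads were counted for Irf8. The log2 fold change was -0.30 (95% interval -0.78 to 0.19, adjusted p = 0.560 from limma). It was -0.05 without MC-21 replicate 3 and -0.50 without MC-21 replicate 4. The level of Spi1 was 2.92 to 3.82 times that of Irf8 in PBS libraries and 3.32 to 4.88 times in MC-21 libraries.

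Gfi1, the repressor that holds down the monocyte programme in granulocyte progenitors, was close to the limit of detection. It had 0.116, 0.290, 0 and 0.162 RPKM in PBS replicates 5 to 8 and 0.180, 0.202 and 0.116 RPKM in MC-21 replicates 2 to 4 (mm9 chr5:108145674-108155056). These values stand for 1, 3, 0 and 2 reads and for 2, 1 and 1 reads. The 0 in PBS replicate 7 allows up to 0.363 RPKM, which is what 3 reads would give. Pooled over the libraries, 6 reads in PBS and 4 reads in MC-21 neutrophils correspond to 0.152 RPKM (95% Poisson interval 0.0557 to 0.331) and 0.162 RPKM (0.0441 to 0.415), so that a difference was not detectable at this depth.

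Klf2, which keeps leukocytes and endothelium quiescent, was the highest Kruppel-like factor. Its level was 412, 260, 338 and 241 RPKM in PBS replicates 5 to 8 and 309, 285 and 323 RPKM in MC-21 replicates 2 to 4 (mm9 chr8:74842932-74845555). All MC-21 libraries lay inside the PBS range, and the PBS libraries spread 1.71-fold. The log2 fold change was -0.0015 (95% interval -0.43 to 0.42, adjusted p = 0.997 from limma), and it was 0.16 with libraries centred on their medians. Klf2 is also expressed in endothelium, whose 10 markers summed to 2980, 2003, 1418 and 2578 RPKM in PBS replicates 5 to 8 and to 1679, 2489 and 1533 RPKM in MC-21 replicates 2 to 4. The part of endothelial RNA in the level of Klf2 was not tested.

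Klf6, an early response factor in inflammatory macrophages and neutrophils, was level across the libraries. It had 80.6, 73.6, 83.8 and 71.1 RPKM in PBS replicates 5 to 8 and 78.1, 77.5 and 95.5 RPKM in MC-21 replicates 2 to 4 (mm9 chr13:5860735-5869639), so that only MC-21 replicate 4 was outside the PBS range. The log2 fold change was 0.11 (95% interval -0.20 to 0.42, adjusted p = 0.753 from limma).

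Klf4, which promotes monocyte differentiation, had the largest difference among the factors on the values as deposited. After centring on library medians (0.56 against -0.50) and after correction for GC content (0.66 against -0.50) that of Cebpd was larger, and without PBS replicate 6 or MC-21 replicate 3 that of Cebpa was. Its level was 8.67, 8.88, 8.28 and 5.97 RPKM in PBS replicates 5 to 8 and 3.86, 3.92 and 6.26 RPKM in MC-21 replicates 2 to 4 (mm9 chr4:55540013-55545347). The groups overlapped through a single pair, since MC-21 replicate 4 was above PBS replicate 8. The means were 7.95 ± 1.34 RPKM (SD, n = 4) and 4.68 ± 1.37 RPKM (SD, n = 3), a 1.59-fold lower level in MC-21 neutrophils on the log2(RPKM + 1) scale, which understates the change of low genes. The log2 fold change was -0.67 (SE 0.22, 95% interval -1.16 to -0.18) with an unadjusted p of 0.0127 and an adjusted p of 0.224 from limma, and the two-sided exact permutation test gave p = 0.0857. Over 15 alternatives it stayed between -0.86 and -0.50, with -0.50 after centring on library medians. These levels rested on 302 reads in the PBS and 114 reads in the MC-21 libraries, or 7.80 RPKM (95% Poisson interval 6.95 to 8.73) against 4.71 RPKM (3.89 to 5.66) when pooled. Such intervals cover counting error only and leave out the spread between livers, so that they do not compare the groups.

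Monocyte and macrophage markers, like the mean of Klf4, were lower in MC-21 neutrophils. The sum of the 15 genes was 505, 528, 583 and 560 RPKM in PBS replicates 5 to 8 and 303, 292 and 233 RPKM in MC-21 replicates 2 to 4, and Ccr2, the receptor that MC-21 binds, was at 1.91 to 3.26 RPKM in PBS neutrophils and 0 to 0.390 RPKM in MC-21 neutrophils. MC-21 replicate 4 had the most Klf4 of its group and the smallest sum of these markers of all libraries, and PBS replicate 8 had the least Klf4 of its group beside a sum of 560 RPKM. The part of monocyte RNA in the level of Klf4, Irf8 or Cebpa was not tested. The profiles most similar to that of Klf4 were those of Tlr1, a receptor for bacterial lipopeptides (mean absolute difference 0.09), Nprl2, a nutrient-sensing regulator of mTORC1 (0.10), and Asgr1, the asialoglycoprotein receptor of hepatocytes (0.11). As a description chosen after the values were seen, Klf6 was 8.29 to 11.9 times Klf4 in PBS and 15.3 to 20.2 times Klf4 in MC-21 libraries, and Klf2 was 29.2 to 47.5 times Klf4 in PBS and 51.5 to 80.1 times Klf4 in MC-21 libraries.

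Ratios between factors of opposed or successive roles were compared within libraries, where the scaling between libraries has little effect. Irf8 against Gfi1, the monocyte and granulocyte sides of 1 decision, differed by -0.33 on the log2 scale between MC-21 and PBS neutrophils (two-sided exact permutation test, p = 0.343, adjusted over 4 ratios p = 0.686), and this value followed Irf8, since Gfi1 was near 0 RPKM. Cebpb against Cebpa, the mature and the early C/EBP factor, differed by 0.46 (exact permutation p = 0.257, adjusted p = 0.686). The 4 PBS libraries had log2 ratios of 8.44, 8.63, 8.01 and 7.68 and the 3 MC-21 libraries 8.54, 8.27 and 9.14, so that the groups overlapped. Cebpe against Cebpb differed by -0.06 (exact permutation p = 0.914, adjusted p = 0.914) and Klf2 against Klf6 by -0.11 (exact permutation p = 0.6, adjusted p = 0.8), and both of these turned sign under another scaling or without a single library. Leaving out a library leaves too few splits for any of these tests to reach 0.05.

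Relatives of the factors were taken from lists of the same families. Among 9 other Kruppel-like factors tested, 2 had an unadjusted p under 0.05 and 0 an adjusted p under 0.05, against 14.7% and 0.625% of all genes tested, and both were higher in MC-21 neutrophils. Klf13 had 40.2, 42.9, 42.7 and 49.0 RPKM in PBS and 55.0, 62.1 and 78.1 RPKM in MC-21 neutrophils (log2 fold change 0.55, adjusted p = 0.178 from limma). Klf9, a target of glucocorticoids, had 10.0 to 11.2 RPKM in PBS and 14.8 to 15.5 RPKM in MC-21 neutrophils (0.49, adjusted p = 0.182). Neither gene's groups overlapped. Of the 14 names in this list, Klf8, Klf12, Klf14 and Klf17 were not in the table.

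The C/EBP relatives and regulators had 2 of 6 genes with an unadjusted p under 0.05 and 0 with an adjusted p under 0.05, against 14.7% and 0.625% of all genes tested. Both were higher in MC-21 neutrophils, namely Ddit3 (CHOP, a C/EBP relative of the stress response), with 48.8 to 58.5 RPKM in PBS and 64.9 to 70.6 RPKM in MC-21 neutrophils (log2 fold change 0.31, adjusted p = 0.327 from limma), and Trib3, a pseudokinase of the same response, with 0.367 to 2.22 and 1.23 to 3.33 RPKM (0.79, adjusted p = 0.329). Ddit3 did not overlap between the groups and Trib3 did. Among 6 other interferon regulatory factors tested, 1 had an unadjusted p under 0.05, against 14.7% of all genes tested. That gene was Irf7, the interferon-induced amplifier of type I interferon genes. It had 67.7 to 142 RPKM in PBS and 184 to 348 RPKM in MC-21 neutrophils (log2 fold change 1.36, adjusted p = 0.0697 from limma). Among 13 other ETS factors, 1 had an unadjusted p under 0.05, against the same 14.7%. This was Elk3, which is prominent in endothelium. It had 28.0 to 40.1 RPKM in PBS and 12.7 to 21.1 RPKM in MC-21 neutrophils (-0.99, adjusted p = 0.0739 from limma). Of the 10 endothelial markers 8 were lower, against 69.4% of all genes tested, and 0 had an unadjusted p under 0.05, against 14.7%. Their median log2 fold change was -0.37, against -0.15 over all genes tested, and their part in the level of Elk3 was not tested.

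Other myeloid lineage factors included the single transcription factor of the lists with an adjusted p under 0.05. Id2, an inhibitor of E proteins, rose from 306, 256, 203 and 184 RPKM in PBS replicates 5 to 8 to 425, 568 and 701 RPKM in MC-21 replicates 2 to 4 (log2 fold change 1.25, SE 0.22, adjusted p = 0.0415 from limma). Its adjusted p was above 0.05 in 6 of the 7 fits without 1 library, at up to 0.149 without MC-21 replicate 4, and stayed under 0.05 (0.0421) without PBS replicate 5, with log2 fold changes of 1.08 to 1.44. Of the 18 genes tested in this list, 2 were higher and 4 lower with an unadjusted p under 0.05, against 3.59% and 11.2% of all genes tested, and Id2 was the 1 gene with an adjusted p under 0.05, against 0.625%. Runx1, a partner of PU.1 and C/EBPα in myeloid genes, had 4.66 to 11.2 RPKM in PBS and 13.2 to 17.3 RPKM in MC-21 neutrophils (0.84, adjusted p = 0.199). Id3 (-0.89, adjusted p = 0.273) and Lyl1 (-0.48, adjusted p = 0.237) were among the 4 lower genes.

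**Figure D5:**
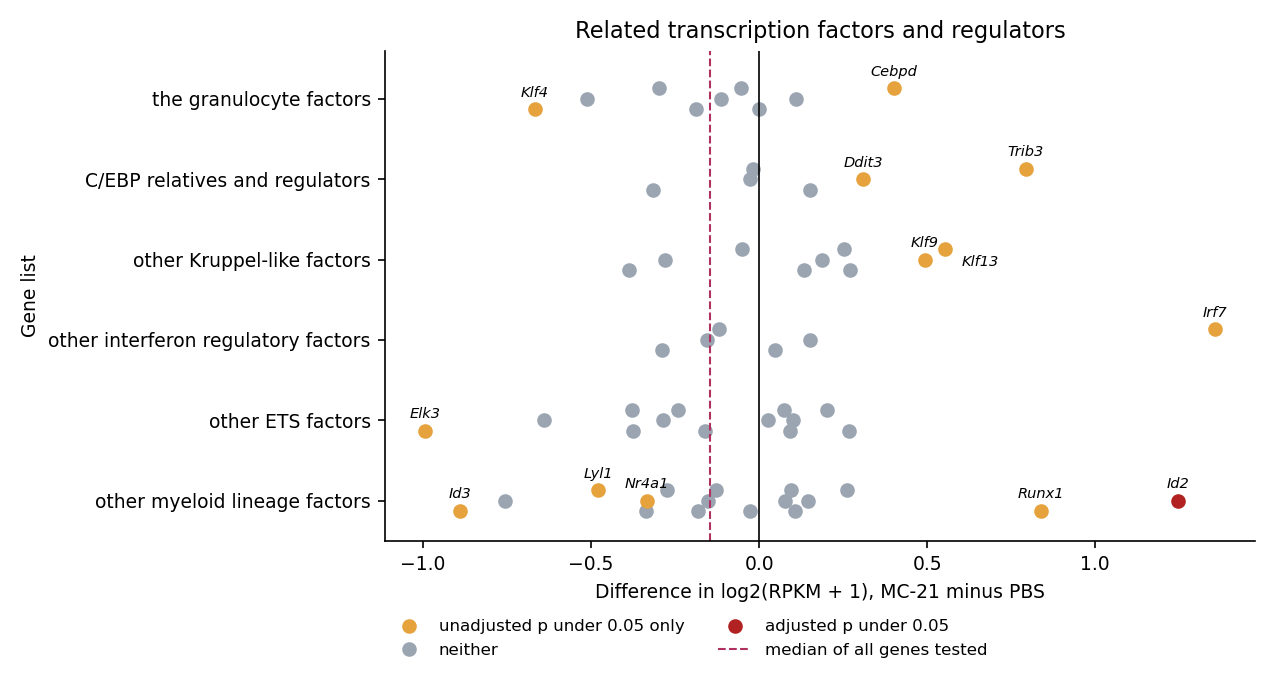
Difference in log2(RPKM + 1) between MC-21 and PBS neutrophils (x axis) for the genes tested in 6 lists (y axis; 1 gene of the last list is not shown; points are shifted vertically for legibility). Red, adjusted p under 0.05 from limma; orange, unadjusted p under 0.05 alone; grey, neither; dashed line, the median of all genes tested. Id2 at 1.25 is the single red point, and Klf4 and Cebpd are the 2 named granulocyte factors.

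Genes known to be controlled by these factors differed in both directions. Of 10 receptor and host defence targets of PU.1 and C/EBP, 4 were lower and 1 higher with an unadjusted p under 0.05, against 11.2% and 3.59% of all genes tested, and 1 was lower with an adjusted p under 0.05, as 0.427% of all genes tested were. That gene was Fcgr1, the high-affinity IgG receptor, which fell in MC-21 neutrophils, with 6.15 to 13.3 RPKM in PBS and 1.08 to 1.46 RPKM in MC-21 libraries (log2 fold change -2.22, SE 0.25, adjusted p = 0.00851 from limma) and which is also among the monocyte and macrophage markers. It kept an adjusted p under 0.05 without any 1 of the 7 libraries (limma, at most 0.0431). Csf1r, another of the 4 lower genes (-0.58, adjusted p = 0.307 from limma), is also among those markers. The part of monocyte and macrophage RNA in the lower levels of these targets was not tested. Lyz2 (lysozyme, -1.28, adjusted p = 0.0739) and Cybb (the catalytic subunit of NADPH oxidase 2, -1.01, adjusted p = 0.0791) were lower in every MC-21 library than in every PBS library. Cd14, the lipopolysaccharide co-receptor, had 391 to 800 RPKM in PBS and 1071 to 1430 RPKM in MC-21 neutrophils (1.11, adjusted p = 0.0739 from limma). The 10 targets summed to 1070 to 1717 RPKM in PBS and 1752 to 2133 RPKM in MC-21 neutrophils, without overlap.

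Specific granule genes, which depend on C/EBPε during maturation, had 2 of 8 tested genes higher and 0 lower with an adjusted p under 0.05, against 0.198% and 0.427% of all genes tested. The 8 genes summed to 1151 to 2058 RPKM in PBS and 2113 to 2841 RPKM in MC-21 neutrophils, without overlap. Chil3, a chitinase-like protein, rose from 230, 157, 97.0 and 85.9 RPKM in PBS replicates 5 to 8 to 530, 691 and 1084 RPKM in MC-21 replicates 2 to 4 (log2 fold change 2.47, SE 0.35, adjusted p = 0.0172 from limma). Cd177, a neutrophil surface protein, rose in MC-21 neutrophils, with 7.36 to 18.7 RPKM in PBS and 29.9 to 42.7 RPKM in MC-21 libraries (1.66, adjusted p = 0.0415). Camp, the cathelicidin, had 6.04, 49.6, 20.7 and 43.4 RPKM in PBS and 4.67, 2.10 and 15.01 RPKM in MC-21 libraries (-1.89, adjusted p = 0.281). Without 1 library, the adjusted p of Chil3 from limma was between 0.0103 and 0.0814, above 0.05 without PBS replicate 7 (0.0571), PBS replicate 8 (0.0814), MC-21 replicate 3 (0.0631) or MC-21 replicate 4 (0.0689). That of Cd177 was between 0.0262 and 0.140, and under 0.05 without PBS replicate 6 or PBS replicate 7. The 3 genes did not share a sign. The groups overlapped in the level of Cebpe, and a link between Cebpe and these genes was not tested.

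Primary granule genes, which are made at the promyelocyte stage under Cebpa, were near 0. Of 4 genes in the table only Prtn3 passed 1 RPKM, with a sum of all 4 of 2.17 to 3.88 RPKM in PBS and 1.30 to 7.40 RPKM in MC-21 neutrophils. Mpo (myeloperoxidase) was at 0 in PBS replicates 5 to 7 and in MC-21 replicates 3 and 4, and at 0.198 and 0.110 RPKM in the other 2 libraries. Among the 5 markers of dividing cells, Ccnb1 was at 0 in all 7 libraries and 1 gene passed 1 RPKM. Of 5 genes controlled by Klf2, among them S1pr1 (the receptor for exit into blood), 0 had an unadjusted p under 0.05 by limma, against 14.7% of all genes tested. Their sums of 90.8 to 154 RPKM in PBS and 90.5 to 157 RPKM in MC-21 neutrophils overlapped.

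Livers were digested with enzymes before the sort, and genes known to respond to such digestion were measured beside the factors. Several of them are also expressed in activated neutrophils. Their 14 genes summed to 7217 to 9029 RPKM in PBS and 7883 to 9347 RPKM in MC-21 neutrophils, so that the groups overlapped. With an unadjusted p under 0.05, Ier3 was higher (0.57, adjusted p = 0.197 from limma) and Atf3 lower (-0.52, adjusted p = 0.165). Over all genes tested, 3.59% were higher and 11.2% lower by this measure. The part of digestion in these levels, or in those of the factors, was not tested.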

How the data were processed

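Total RNA of 50000 sorted neutrophils per liver was made into 3′ RNA-seq libraries (4 PBS, 3 MC-21). The authors aligned them with HISAT 0.1.5 (mm9 build), used SAMtools, and deposited RPKM values per gene and library from Partek 6.6. The annotation, filters and handling of shared reads are not given in the sources used here. The table names no strand, so that overlapping transcripts could share reads. Samples were grouped by their labels, and nothing says more than that each library is 1 liver.

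From these values, MC-21 minus PBS was tested on log2(RPKM + 1) with limma 3.58.1 (trend) in R 4.3.3, for the 9594 genes that averaged 1 RPKM or more, with Benjamini-Hochberg adjustment over all of them. This replaced the t-test of the study, because 7 libraries are few for a test per gene. For single values the test was an exact permutation of the libraries over 35 splits, two-sided. Low RPKM values fall on multiples of 1 read, which gave depth (1 RPKM in 1 kb stood for 1.59 reads in MC-21 replicate 3 and up to 3.96 in PBS replicate 8) and whole reads for 8 of 10 factors within 0.06 of a read. Counts of reads were used for intervals (95% Poisson, counting error only), not for tests. For Cebpb and Cebpd no whole reads were recovered, and the annotated length of Cebpd differs between sources, so that its rank without division by length is uncertain.

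Factors and lists were chosen with earlier results of these data known. Named are every factor, up to 3 genes per direction of each list with an unadjusted p under 0.05, and the 3 most similar profiles of factors with a log2 fold change of at least 0.5 in size. Csf1r is named beside these because it is in more than 1 list. Single values of 2 list genes are not reported here, and both stayed in the fits, counts and sums. Similarity is the mean absolute difference of log2(RPKM + 1) after subtracting each gene's mean. Coordinates are from the GENCODE annotation of mm9, promoters from RefSeq (GRCm38.p6). On simulated data for 9594 genes, 178 of 200 genes changed by 2 (log2) were called, with 12 unchanged genes. The factors differed by at most 0.67 (log2), and the recovery of changes of that size was not simulated. Alternatives were a pseudocount of 0.1, no filter, a mean of at least 5 RPKM, centring on medians, quantile normalization, correction for GC content (lowess, span 0.3), limma without trend or moderation, RPKM times transcript length for the order of levels, and leaving out each library. Python 3.11.15, numpy 2.4.6, pandas 2.3.3, scipy 1.17.1 and matplotlib 3.10.9 were used.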

Additional observations from a re-analysis of the deposited data

How the results depend on the processing

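No factor had an adjusted p under 0.05 or passed the cutoffs of the study under any of the 15 alternatives. No ratio passed 0.05 in the alternatives that gave one. Most of these could not alter that outcome, since without 1 library too few splits remain to reach 0.05, and centring on medians leaves a ratio within a library unchanged. The differences of Cebpd, Klf6, Klf4, Irf8 and Cebpa kept their direction under every alternative that gave a value. Centring on medians removed a shift of the median gene of -0.15 (log2). Factors with an unadjusted p under 0.05 numbered 2, and 1 under correction for GC content, centring on medians and quantile normalization, 3 without MC-21 replicate 4 or PBS replicate 6, and 2 under the other alternatives. Differences of factors near 0 turned sign. Correction for GC content gave 0.22 for Cebpb, 0.14 for Cebpe, 0.047 for Spi1, 0.25 for Klf2 and 0.078 for the ratio of Klf2 and Klf6. Centring on medians gave 0.11 for Cebpb, 0.050 for Cebpe and 0.16 for Klf2. Quantile normalization gave 0.057 for Cebpe, 0.0085 for Klf2 and 0.12 for the ratio of Cebpe and Cebpb. With 1 library left out at a time, Cebpb ranged from -0.17 to 0.011 (above 0 without MC-21 replicate 3), Klf2 from -0.11 to 0.14 (above 0 without MC-21 replicate 3, PBS replicate 5 or PBS replicate 7), Cebpe from -0.30 to 0.23 (above 0 without MC-21 replicate 4 or PBS replicate 6), the ratio of Cebpe and Cebpb from -0.29 to 0.40 (above 0 without the same libraries) and the ratio of Klf2 and Klf6 from -0.19 to 0.010 (above 0 without PBS replicate 5).

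All genes called numbered 60 (41 lower, 19 higher), 4 without moderation and 4 with no filter. They numbered 9 without PBS replicate 8, 14 without PBS replicate 7, 18, 19 and 35 without MC-21 replicates 4, 2 and 3, and 102 without PBS replicate 6. The split was 30 lower and 44 higher with centring on medians, 28 and 22 with correction for GC content, and 29 and 26 with quantile normalization. Of the genes in the lists of relatives, targets and granule genes, 4 had an adjusted p under 0.05, 2 without a trend, 0 without moderation 0 with no filter, 3 with correction for GC content and 6 with centring on medians, and 1 to 4 when each library was left out, with 1 without MC-21 replicate 3, MC-21 replicate 4 or PBS replicate 8 and 2 without MC-21 replicate 2 or PBS replicate 7. The cause was not tested. Of the other values, 159 of single factors (ranks included) and ratios kept direction and side of the threshold. Depth limits Gfi1, Cebpa, Cebpe and Klf4, the factors with the fewest reads.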
